A study of Mus musculus with 12 samples.

Results

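Interferon-stimulated genes (ISGs) are the genes that cells switch on when interferon, the secreted alarm signal of viral infection, reaches its receptor. A list of 36 of them was followed in mouse epididymal white adipose tissue (eWAT). The 36 genes fell by role into 3 transcription factors (Irf7, Irf9, Stat2), 5 sensors of RNA and DNA, 9 effectors on RNA and translation, 3 genes of the ISG15 system, 9 other antiviral effectors, 3 genes of the PARP and DTX3L group, and 4 interferon-inducible GTPases. All 36 were found by transcript identifier among the 22947 genes of the table. The name column of the table alone gave 34, because it names the assembled locus: Irf9 stood under Rnf31, and Igtp under Irgm1.

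The tissue came from male C57BL/6J mice aged 21 weeks, none of them genetically modified. After 16 weeks on diet, 3 mice per group were sequenced. The groups were the normal diet (ND), the high-fat diet (HFD), the HFD with an ethanol extract of chrysanthemum leaf (CLE) at 1.5% (w/w), and the HFD with luteolin (LU), a flavonoid of that plant, at 0.003% (w/w). CLE and LU mice therefore ate the HFD throughout, and each library came from 1 mouse. Values are FPKM, fragments scaled to the length of a transcript and to the mapped fragments of a library, so levels can be compared between genes, while the depth behind a value is unknown.

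In the canonical pathway, type I interferons bind the receptor chains IFNAR1 and IFNAR2, whose kinases start a signal that ends at the interferon-stimulated response element (ISRE) of target promoters. STAT2 and IRF9 belong to the complex that binds this element. Interferon gamma uses its own receptor and acts through the gamma-activated site (GAS), driving above all the immunity-related GTPases and guanylate-binding proteins. Adipocytes and adipose tissue macrophages are both able to respond to interferons.

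The ISRE letters were common in the promoters of these genes. RefSeq promoter windows on GRCm38.p6, reaching from 250 bases before the start of a gene to 50 bases after it, were held for 28 members. The letters GAAANNGAAA, sought on both strands, lay in the windows of 15 of the 28 members (53.6%), against 3.99% of 27025 genes. The GAS letters TTCNNNGAA lay in the windows of 6 of the 28 (21.4%), against 9.55% of all genes. A match is a description of letters, not a shown binding site, and neighbouring matches may overlap. The windows of Oasl1, Irf7, Trim25, Samd9l and Xaf1 held no ISRE match. The following stretches show the ISRE matches of 8 members, of which Oas1a and Isg15 differed between HFD and ND, in opposite directions. They run 5′ to 3′ on the strand of the gene, capitals mark every base of an ISRE match, and a run longer than 10 capitals holds overlapping matches.
Oas1a, chr5:120907526-120907557, minus strand: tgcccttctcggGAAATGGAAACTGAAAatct
Isg15, chr4:156200857-156200902, minus strand: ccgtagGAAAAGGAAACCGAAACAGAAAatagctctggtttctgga
Bst2, chr8:71537569-71537614, minus strand: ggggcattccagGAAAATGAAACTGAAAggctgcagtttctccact
Irgm1, chr11:48871421-48871462, minus strand: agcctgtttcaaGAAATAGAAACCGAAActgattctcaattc
Igtp, chr11:58199504-58199549, plus strand: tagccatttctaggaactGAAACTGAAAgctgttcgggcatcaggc
Gbp2, chr3:142620586-142620631, plus strand: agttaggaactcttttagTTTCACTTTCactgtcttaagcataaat
Ifit1, chr19:34640785-34640831, plus strand: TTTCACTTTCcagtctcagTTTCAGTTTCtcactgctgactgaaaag
Rsad2, chr12:26456545-26456590, minus strand: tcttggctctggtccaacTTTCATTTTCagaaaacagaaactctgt
Isg15 held 3 overlapping matches, beginning 78, 72 and 66 bases before its start. Oas1a held 2 overlapping matches, beginning 20 and 14 bases before its start. Ifit1 held 2 separate matches, beginning 104 and 85 bases before its start.

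All 36 members were detected in eWAT, at low to moderate levels. The summed FPKM of the 36 was 357, 392 and 491 in the 3 ND mice, and 411, 434 and 383 in the HFD mice. In the CLE mice it was 335, 370 and 466, and in the LU mice 422, 528 and 404. The groups overlapped, and the HFD mice lay inside the range of the ND mice. The highest mean over 12 mice belonged to Bst2 (46.7 FPKM), which encodes tetherin, a protein that holds budding virus at the cell surface. It was followed by Trim25 (32.4), the ubiquitin ligase that activates RIG-I, Gbp2 (30.9) and Parp9 (28.5). At the low end stood Oasl1 (1.77), Mx1 (1.49) and Oas3 (0.631). Oas3, a 2′-5′-oligoadenylate synthetase, missed the filter of 1 FPKM in at least 3 libraries, so 35 members were tested. Its FPKM was 1.34, 1.09 and 0.921 in the HFD mice and 0.287, 0.155 and 0.562 in the ND mice.

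**Figure D1:**
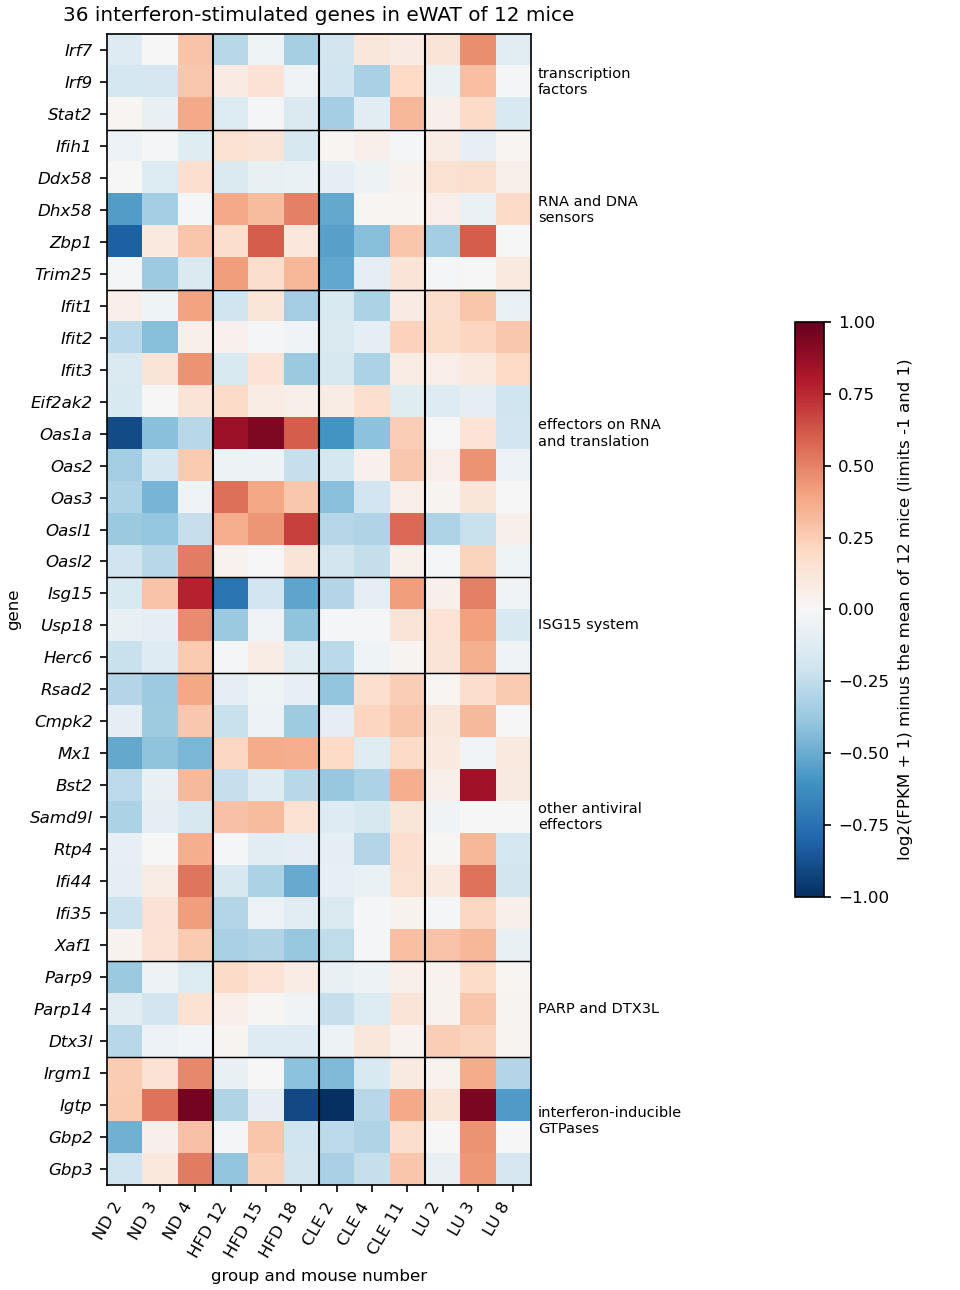
Each row is 1 of the 36 members, ordered by role, and each column is 1 mouse. The colour is log2(FPKM + 1) minus the mean of the 12 mice (red higher, blue lower, saturated beyond -1 and 1). Oas1a, Oasl1 and Dhx58 are red in the HFD columns, Isg15 and Igtp are blue there, and most rows are reddest in ND 4, CLE 11 and LU 3 within their groups.

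HFD against ND asks what the high-fat diet does to these genes. The HFD did not move the group as a whole in 1 direction. Of 35 members, 4 were higher in HFD than in ND (Oas1a, Oasl1, Mx1, Dhx58) and 1 was lower (Isg15). A call needed a Benjamini-Hochberg adjusted p under 0.05 over all genes tested (limma) and a change of more than 1.5-fold. Among all 12775 genes tested, 14.9% were called higher and 10.8% lower. Members were thus called in 14.3% of cases, against 25.6% of all genes. The median log2 fold change of the members was 0.01, against -0.02 over all genes tested, with 18 members above 0 and 17 below. The median of the members takes the other sign, -0.07, after quantile normalization, where that of all genes falls to -0.09.

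Oas1a, which encodes a synthetase of the 2′-5′-oligoadenylates that activate RNase L, had the largest rise. Its FPKM was 4.69, 6.94 and 7.76 in the ND mice and 18.3, 19.3 and 15.1 in the HFD mice. Every HFD mouse lay above every ND mouse, and the log2 fold change of FPKM + 1 was 1.33 (SE 0.21, limma adjusted p = 0.000354). Its neighbour in function, Oasl1, which restrains the translation of Irf7 mRNA, read 1.06, 1.04 and 1.27 FPKM in ND and 2.44, 2.63 and 3.29 in HFD. Those groups did not overlap either, with a log2 fold change of 0.83 (SE 0.20, limma adjusted p = 0.00529). This call was lost without the 4 libraries whose sample titles carry an unexplained letter R, from ND mice 3 and 4, a CLE and an LU mouse (0.87, limma adjusted p = 0.0606). Oas2 and Oasl2, close relatives, differed by -0.02 and 0.05 and were not called. Their values depended on the transcripts counted. Oas2 was called lower with annotated transcripts only (-0.74, limma adjusted p = 0.00969), and Oasl2 was called higher by the highest transcript (1.15, limma adjusted p = 0.0192).

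The dynamin-like GTPase gene Mx1 was measured at 0.712, 0.842 and 0.772 FPKM in ND. In HFD it was measured at 1.81, 2.15 and 2.14 FPKM. The spread within each group was small beside the gap, and the log2 fold change was 0.77 (SE 0.10, limma adjusted p = 6.97e-05). C57BL/6J mice are known to carry a defective Mx1 allele, which limits it as a sign of antiviral function. Its FPKM was spread over 24 transcripts, and it missed the filter when only annotated transcripts or only the highest transcript of a gene were counted.

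Dhx58 encodes LGP2, which tunes the RNA sensors RIG-I and MDA5. Its ND values were 2.82, 3.43 and 4.57 FPKM and its HFD values 6.32, 6.00 and 6.95 FPKM, without overlap. The log2 fold change was 0.70 (SE 0.16, limma adjusted p = 0.00391), and without ND mouse 2 it was 0.58, under the fold limit. Ddx58 and Ifih1, the genes of RIG-I and MDA5 themselves, differed by -0.11 and 0.11 and were not called.

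Isg15, the ubiquitin-like protein that is conjugated to new viral and host proteins, went the other way. Its FPKM was 5.84, 8.27 and 12.0 in ND and 3.59, 5.68 and 4.28 in HFD. The highest HFD mouse lay just under the lowest ND mouse, and the log2 fold change was -0.78 (SE 0.25, limma adjusted p = 0.0217). This call rested on single mice. It was lost without ND mouse 4 (log2 fold change -0.55, limma adjusted p = 0.0889), without HFD mouse 12 (-0.66, adjusted p = 0.0820) and without HFD mouse 18 (-0.76, adjusted p = 0.0570). It was also lost with the letter R as a covariate (-0.71, limma adjusted p = 0.0801) and without the libraries that carry it (-0.33, limma adjusted p = 0.467), which include 2 of the 3 ND mice and 0 of the HFD mice. Usp18, the protease that removes ISG15, had a value of -0.37 and Herc6, the main mouse ISG15 ligase, 0.01, and neither was called.

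A further 5 members passed the adjusted p alone, with changes under 1.5-fold. Trim25 (0.49), Samd9l (0.44) and Parp9 (0.32) were on the higher side, and Ifi44 (-0.50) and the pro-apoptotic Xaf1 (-0.48) on the lower side. With them, 7 members passed on the higher side and 3 on the lower, beside 25.7% and 24.8% of all genes. The HFD and ND mice did not overlap for 7 members that were higher in HFD and 5 that were lower, beside 30.2% and 29.3% of all genes. An exact two-sided permutation test of 3 mice against 3 cannot go below p = 0.1. Groups that do not overlap always give that value, so for these 12 members it adds nothing.

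Igtp and Irgm1, which encode immunity-related GTPases of the interferon gamma response, were among the 5 members whose HFD mice all lay below the ND mice. Igtp read 14.5, 17.9 and 24.2 FPKM in ND and 9.50, 11.1 and 5.96 in HFD. Although its groups were apart, its log2 fold change of -1.02 had a 95% interval from -1.91 to -0.13 and a limma adjusted p of 0.0536. Irgm1 had -0.45 (95% interval -0.86 to -0.05, limma adjusted p = 0.0573). The guanylate-binding protein genes Gbp2 and Gbp3 had 0.07 and -0.25. Reads of Igtp cannot be cleanly parted from those of Irgm2, whose annotation overlaps it by 7974 bases on the same strand.

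The transcription factor genes Irf7, the amplifier of interferon production, Irf9 and Stat2 had log2 fold changes of -0.27, 0.09 and -0.20 and were not called. For the tetratricopeptide genes Ifit1, Ifit2 and Ifit3 the values were -0.28, 0.21 and -0.27, and for Rsad2, the gene of viperin, 0.02, again without a call. Ifit2 was called higher with annotated transcripts only (0.72, limma adjusted p = 0.00153) and by the highest transcript (0.65, limma adjusted p = 0.00441). The median size of a member's change, whatever its direction, was 0.27, against 0.32 over all genes. For 17 of 35 members (48.6%) the whole 95% interval lay within a 1.5-fold change in either direction, against 48.4% of all genes tested. The remaining intervals leave changes of that size open, as for Zbp1 (0.44, 95% interval -0.26 to 1.14).

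**Figure D2:**
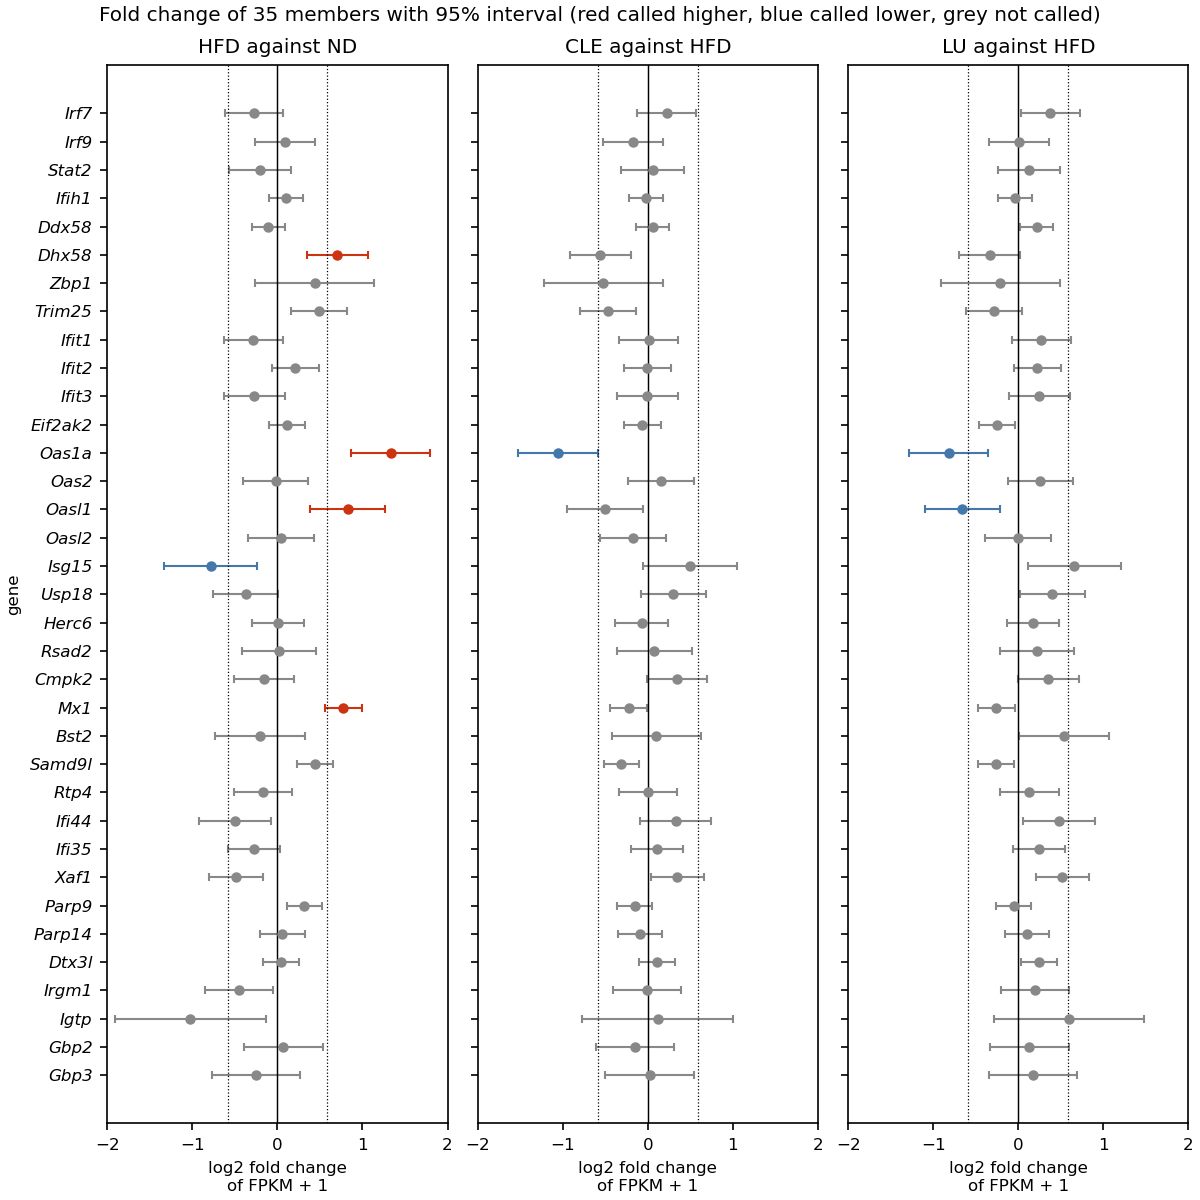
Points are the log2 fold change of FPKM + 1 of each tested member in 3 comparisons, with limma 95% intervals; dotted lines mark 1.5-fold in either direction. Called genes are coloured: 5 for HFD against ND, 1 for CLE against HFD and 2 for LU against HFD.

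CLE against HFD asks what the extract changes on the high-fat diet. Here 1 of 35 members was called: Oas1a was lower with CLE. Over all genes tested 10.1% were called lower and 6.33% higher. The median log2 fold change of the members was -0.0041, against 0.0052 over all genes. It takes the sign of a small rise (0.01 to 0.05) when libraries are scaled to equal totals or by quantiles. Under those scalings the median of all genes was 0.02 and 0.05. Oas1a read 6.01, 6.97 and 11.6 FPKM in the CLE mice, all below the lowest HFD mouse (15.1). Its log2 fold change was -1.06 (SE 0.21, limma adjusted p = 0.003).

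Dhx58 (-0.56), Trim25 (-0.47) and Samd9l (-0.31) passed the adjusted p alone. These made 4 members lower by that rule and 0 higher, beside 18.1% and 15.5% of all genes. Dhx58 was 2.94, 4.68 and 4.68 FPKM in CLE, below the HFD mice. Oasl1 was 1.19 and 1.17 FPKM in CLE mice 2 and 4, and 2.95 FPKM in CLE mouse 11, which lay among the HFD mice. With that mouse its log2 fold change was -0.50 (limma adjusted p = 0.0749). Without CLE mouse 11, 4 members were called (Oas1a, Oasl1, Dhx58 and Trim25, all lower), beside 18.2% of all genes in either direction.

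In 6 members the CLE mice lay wholly below the HFD mice and in 3 wholly above (Ifi44, Usp18 and Xaf1), beside 26.2% and 24.4% of all genes. Isg15 was 5.23, 6.18 and 9.16 FPKM in CLE, overlapping the HFD mice. Its log2 fold change of 0.50 had a 95% interval from -0.05 to 1.04. For 22 of 35 members (62.9%) the interval lay within 1.5-fold, against 59.0% of all genes. The Ifit genes were among the closest to 0, at 0.013 (Ifit1), -0.0041 (Ifit2) and -0.0060 (Ifit3).

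LU against HFD asks the same of luteolin. Oas1a and Oasl1 were lower with LU, and no member was called higher, beside 7.64% and 4.81% of all genes. The LU mice had Oas1a at 9.61, 10.6 and 8.30 FPKM, below every HFD mouse. The log2 fold change was -0.82 (SE 0.21, limma adjusted p = 0.0157). Oasl1 stood at 1.15, 1.29 and 1.76 FPKM, also below every HFD mouse, with a log2 fold change of -0.66 (SE 0.20, limma adjusted p = 0.0321). Both calls were near the limit. Oas1a lost its call without HFD mouse 12, HFD mouse 15 or LU mouse 8 (limma adjusted p between 0.0507 and 0.0551). Oasl1 lost it without any of the 3 HFD mice, LU mouse 2 or LU mouse 3 (limma adjusted p between 0.0554 and 0.111). When the 4 libraries with the letter R were left out, LU against HFD gave 0 called members, beside 11.5% of all genes.

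Xaf1 passed the adjusted p alone on the higher side, with 16.2, 16.8 and 12.4 FPKM in LU beside 10.2, 10.4 and 9.82 in HFD (log2 fold change 0.52, limma adjusted p = 0.0202). By that rule 1 member was higher and 2 lower, beside 13.2% and 13.6% of all genes. The LU mice lay wholly above the HFD mice for 8 members, among them Isg15, Bst2, Ifit2 and Ddx58, and wholly below for 7, beside 25.6% and 22.1% of all genes. The members had a median of 0.18, against 0.03 over all genes, with 24 above 0 and 11 below. Under the 3 other scalings it was 0.15 to 0.20, and without ND mouse 4, CLE mouse 11 and LU mouse 3 it was 0.05. Isg15 had 0.66 (95% interval 0.11 to 1.21, limma adjusted p = 0.0722) and Bst2 0.54 (95% interval 0.01 to 1.07, limma adjusted p = 0.119). Comparisons of CLE and of LU with HFD share their 3 HFD mice.

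**Figure D3:**
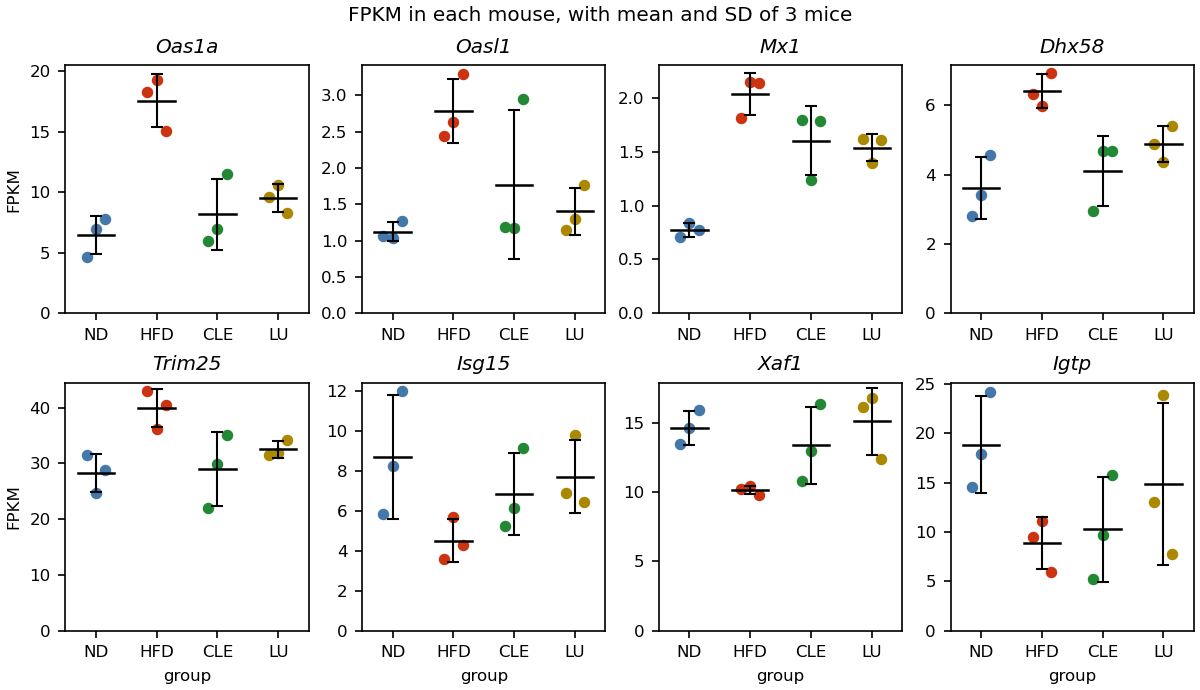
Each panel plots the FPKM of 1 member in every mouse (points), with the group mean (line) and SD (bars, n = 3). Oas1a, Oasl1, Mx1, Dhx58 and Trim25 are highest in HFD, whereas Isg15, Xaf1 and Igtp are lowest there.

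The supplements were not told apart by these genes. CLE against LU gave 0 called members, and 1 of 12775 genes (0.00783%) overall. No member had an unadjusted limma p under 0.05 in that comparison, against 5.26% of all genes. The member median was -0.16, against -0.03 over all genes, with 31 of 35 members lower in CLE, beside 59.3% of all genes. That median moved with single mice, to -0.06 without LU mouse 3, -0.07 without CLE mouse 2 and -0.27 without CLE mouse 11. The single largest difference, Igtp at -0.48, had a 95% interval from -1.36 to 0.41. The interval lay within 1.5-fold for 24 of 35 members, so differences of that size remain possible for the other 11.

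Against the normal diet, no member was called for CLE, beside 2.91% of all genes, or for LU, beside 6.59%. An unadjusted limma p under 0.05 was reached by 3 members for CLE (8.57%) and 6 for LU (17.1%), beside 23.3% and 27.7% of all genes. Mx1 was the exception by p alone. It was 1.79, 1.24 and 1.79 FPKM in CLE and 1.62, 1.40 and 1.61 in LU, all above the ND mice. The log2 fold changes were 0.55 for CLE (limma adjusted p = 0.0151) and 0.52 for LU (limma adjusted p = 0.00731), under the 1.5-fold limit. That side of the limit depended on the pseudocount of 1, since with 0.1 Mx1 was called higher in both (0.95, limma adjusted p = 0.0135, and 0.91, limma adjusted p = 0.00352). Ifit2 passed the adjusted p as well for LU against ND (0.44). Comparing the groups by mean FPKM, Mx1 ran from ND (0.775 ± 0.065, SD, n = 3) through LU (1.54 ± 0.12) and CLE (1.61 ± 0.32) to HFD (2.04 ± 0.19). Its LU and CLE values overlapped.

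Macrophage markers moved on another scale. Of 11 macrophage markers, such as Adgre1, which encodes F4/80, 9 were higher in HFD than in ND, with a median log2 fold change of 2.48. With CLE 9 were lower (median -1.71), and with LU 9 were lower (median -1.34). Of all genes tested, 14.9% were called higher in HFD, 10.1% lower with CLE and 7.64% lower with LU. The summed FPKM of the macrophage markers was 361 to 531 in ND, 2331 to 2688 in HFD, 612 to 885 in CLE and 941 to 1072 in LU. The pan-leukocyte marker Ptprc ran alongside, from 9.28 to 13.7 FPKM in ND and from 47.6 to 58.2 in HFD. Oas1a, Oasl1, Mx1 and Dhx58 were chosen as called higher in HFD than in ND, so that order of their means was given by the choice. Their CLE and LU means lay between, as did those of the marker sum. The choice used the same HFD mice, so it also favours CLE and LU means below the HFD mean. Isg15 was called lower in HFD, and its means lay between in the opposite order to the marker sum. They were 8.70 FPKM in ND, 7.72 in LU, 6.85 in CLE and 4.51 in HFD. The other tested members were not called. The part of the macrophage markers in these differences was not tested. In whole tissue, more cells of a type and more RNA per cell cannot be told apart. Adipocyte markers summed to 27787 to 28918 FPKM in ND and 16422 to 18378 in HFD. Of the 7 tested, 6 were called lower in HFD and 1 higher, beside 10.8% and 14.9% of all genes. The adipocyte marker sums were 24369 to 26477 FPKM in CLE and 22731 to 27929 in LU. The 5 markers of plasmacytoid dendritic cells, a major source of type I interferon, were near 0, with sums between 0.337 and 4.35 FPKM. The 4 neutrophil markers summed to 6.10 to 14.8 FPKM in ND and 69.8 to 119 in HFD, nearly all of it S100a8. Ly6g was listed at 0 in every library. Of the 2 neutrophil markers tested, 1 was called higher and 1 lower in HFD than in ND, beside 14.9% and 10.8% of all genes. T and NK cell markers summed to 3.18 to 9.63 FPKM over all mice.

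**Figure D4:**
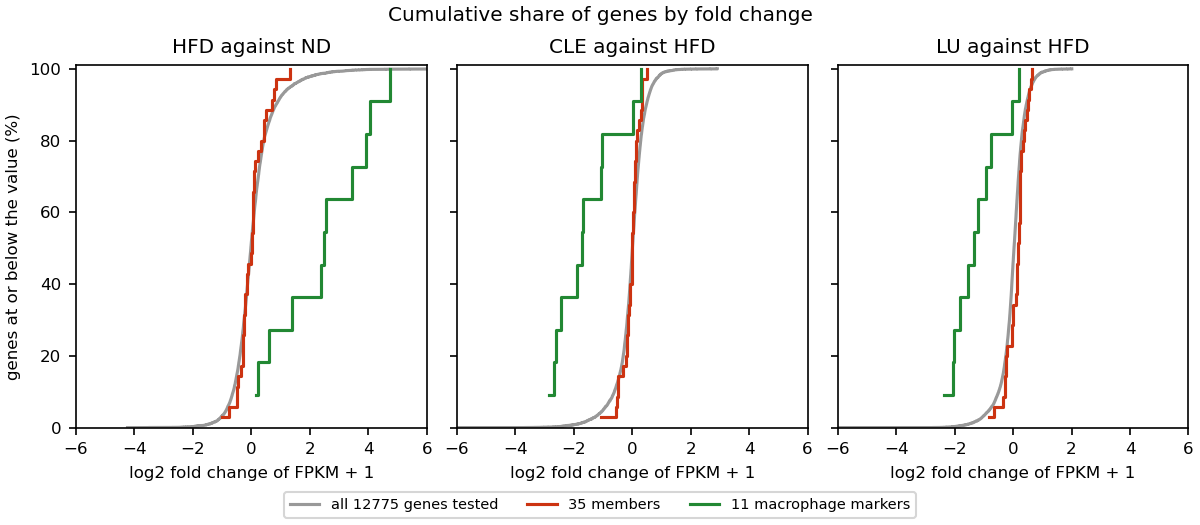
Lines give the percentage of genes with a log2 fold change at or below the value on the horizontal axis, for the 35 members, all 12775 genes tested and 11 macrophage markers. The members lie near all genes for HFD against ND and CLE against HFD (medians 0.01 and -0.0041, against -0.02 and 0.0052) and to their right for LU against HFD (0.18 against 0.03), while the macrophage markers are displaced to higher values in HFD and to lower values with CLE and LU.

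Upstream of the members, a list of 11 interferon ligand genes was at or near 0. Of these, 8 were listed at 0 in every library, and the highest value of any was 0.214 FPKM. The list held Ifna1, Ifna2, Ifna4 and Ifna5 of the Ifna genes, and ligand genes outside it were not examined. Receptor genes were expressed, and 3 of the 5 tested were called higher in HFD, beside 14.9% of all genes tested. Ifnar1 rose by 0.81, Ifngr2 by 0.63 and Il10rb, a chain shared with interleukin 10, by 1.07. Il10rb was lower with CLE (-0.82), beside 10.1% of all genes. No receptor gene was called for LU, beside 12.4% of all genes in either direction. Ifnar1 was 14.6, 15.7 and 15.5 FPKM in ND, 27.7, 26.1 and 28.9 in HFD, 16.5, 18.4 and 19.6 in CLE and 19.8, 19.2 and 21.0 in LU. The HFD mice stood apart from the other 3 groups.

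Among 10 adaptors and kinases downstream of the sensors, 4 were called higher in HFD (Ikbke, Irak4, Ticam1 and Tmem173, the gene of STING). Over all genes tested, 14.9% were called higher. The call of Ticam1 was lost under 14 of 26 alternatives. Ikbke, which encodes the kinase IKK epsilon, had the largest change at 1.44. It was the only one called lower with CLE (-1.16) and with LU (-1.06), beside 10.1% and 7.64% of all genes. Of the 5 other interferon regulatory factors tested, Irf5, a factor of inflammatory macrophages, was higher in HFD (2.24) and lower with CLE (-1.61) and LU (-1.22). Irf4, which adipocytes use in lipolysis, was lower in HFD (-2.65). Among 11 inhibitors of the pathway, the phosphatase gene Ptpn6 (2.90), Samhd1 (0.97) and the DNase gene Trex1 (0.70) were higher in HFD. All 3 were lower with CLE, and Ptpn6 was lower with LU. The shares of all genes were 14.9% higher in HFD, 10.1% lower with CLE and 7.64% lower with LU.

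A wider list of 58 other tested interferon-induced genes went both ways as well. It had 10 higher and 9 lower in HFD (17.2% and 15.5%, beside 14.9% and 10.8% of all genes) and a median of -0.15. With the letter R as a covariate, Gbp7, Gvin1, Iigp1 and Tgtp1 lost their lower calls (limma adjusted p between 0.0710 and 0.0996). No higher call of this list was lost there. Leaving out the libraries with the letter R left ND mouse 2 alone in its group. These genes and Cd274, Cxcl9, Gbp4 and Gbp9 were then not called (log2 fold changes from -1.12 to -0.28). With CLE 8 were lower and 3 higher (13.8% and 5.17%, beside 10.1% and 6.33%), shares near those of all genes. The genes called lower with CLE included Ifi30 (-1.99), Slfn2 (-1.47), Ifi207 (-1.41) and Ciita (-1.14), the regulator of MHC class II genes. Among those called higher was Gbp4 (0.93), which lost its call under 10 of 25 alternatives. For LU, 4 were called higher and 6 lower (6.90% and 10.3%, beside 4.81% and 7.64%). The Oas1a paralog Oas1g was called higher in HFD (0.64), with 0.442, 0.570 and 0.831 FPKM in ND and 1.68, 1.49 and 1.35 in HFD. Every HFD library but no ND library reached the 1 FPKM of the filter for Oas1g, so its high group alone let it into the test. That call was lost under 2 of 23 alternatives. Reads of near-identical Oas1 genes may have been split between them, so the level of Oas1a alone is uncertain. Only 0.000328% of its FPKM came from annotated transcripts as such, the rest from assembled isoforms that share a splice junction with them, so it missed the filter when only annotated transcripts were counted. Irf7 overlaps Phrf1, and Parp9 overlaps Dtx3l, on opposite strands, and the strandedness of the libraries is not given in the sources used here.

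Mouse-to-mouse differences within a group were shared by most members. In ND mouse 4, 30 of 35 members had the highest value of their group, against 30.7% of all genes tested. In CLE mouse 11 it was 30 of 35, against 40.7% of all genes, and in LU mouse 3 it was 25 of 35, against 30.0%. For 22 members (62.9%) all 3 of these mice were the highest of their groups, against 3.19% of all genes, and these members included Isg15, Bst2, Zbp1, Ifi44 and all 4 GTPases. HFD mouse 15 led for 22 of 35 members, against 31.4%. ND mouse 4, CLE mouse 11 and LU mouse 3 were picked from these same values as the leaders of most members. A high share for the 3 together was thus partly fixed by that choice. Genes that vary together are also not independent, so the shares are given as a description and without a test.

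Igtp had the widest range within the HFD, CLE and LU groups on the log2 scale. It was 5.27, 9.72 and 15.8 FPKM in CLE mice 2, 4 and 11, and 13.1, 23.9 and 7.74 FPKM in LU mice 2, 3 and 8. Bst2 was 46.9, 81.9 and 48.1 FPKM in LU mice 2, 3 and 8, far higher in LU mouse 3. LU mice 2 and 8 also lay above every HFD mouse (38.4, 41.2 and 37.2 FPKM). Mx1, Ifih1, Trim25, Samd9l and Dtx3l did not follow the pattern, with at most 1 of the 3 mice in the lead. Macrophage marker sums ran differently: they were 361, 531 and 365 FPKM in ND mice 2, 3 and 4, and 978, 941 and 1072 FPKM in LU mice 2, 3 and 8. In CLE mice 2, 4 and 11 they were 612, 725 and 885 FPKM, so mouse 11 was highest in both. T and NK cell markers summed to 3.86, 9.63 and 4.07 FPKM in LU mice 2, 3 and 8, highest in LU mouse 3, and to 4.22, 4.78 and 3.18 in ND mice 2, 3 and 4, lowest in ND mouse 4. Endothelial markers summed to 289, 198 and 322 FPKM in ND mice 2, 3 and 4 and to 249, 344 and 360 in CLE mice 2, 4 and 11, highest in the same 2 mice as the members, but to 344, 282 and 331 in LU mice 2, 3 and 8, lowest in LU mouse 3. Mesothelial markers summed to 8.46, 19.8 and 48.0 FPKM in the ND mice and epididymis markers to 1.44, 0.388 and 5.46, both highest in ND mouse 4, and neither was highest in LU mouse 3. The part of these cell markers in the differences between mice was not tested. Without ND mouse 4, CLE mouse 11 and LU mouse 3, called members numbered 4 for HFD against ND, 4 for CLE against HFD and 2 for LU against HFD, beside 26.1%, 18.1% and 10.9% of all genes.

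**Figure D5:**
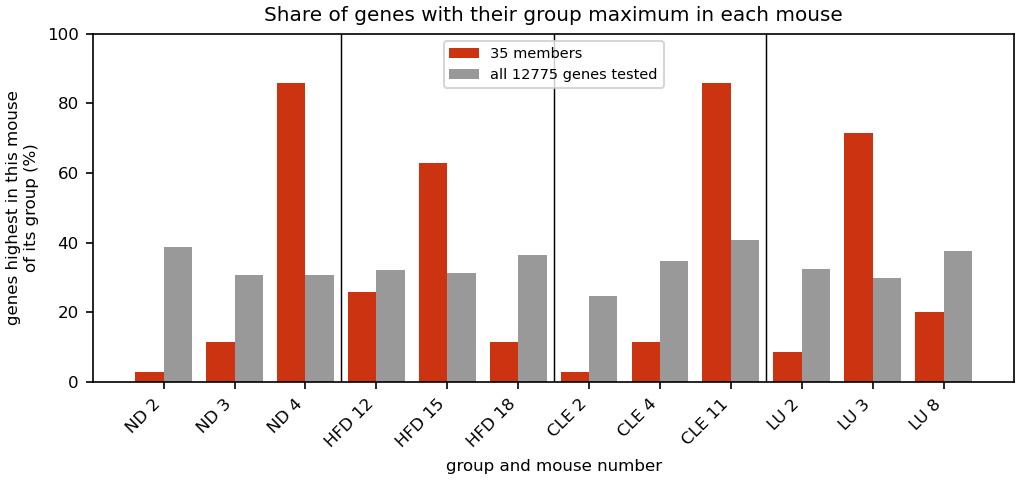
Bars give the percentage of genes whose highest FPKM within a diet group fell in the mouse named below, for the 35 members (red) and all 12775 genes tested (grey). ND 4, CLE 11 and LU 3 hold the maximum of 85.7%, 85.7% and 71.4% of members.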

How the data were processed

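Libraries of mRNA from eWAT were made by the authors with a TruSeq kit. The submitters' processing notes name CASAVA 1.8.2, TopHat2 2.0.12, Bowtie2 2.2.3 and Cufflinks 2.2.1. The deposited values are FPKM per transcript, and the genome build is not given in the sources used here. Of plain transcripts found in GENCODE M21, 87.6% had the same start and end as on GRCm38.

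FPKM was summed per gene over 140416 transcripts matched by identifier, including assembled isoforms of annotated transcripts. The transcripts left out held 65.6% to 92.8% of the total FPKM of a library, 96.3% of it in 5 short assembled transcripts. Genes with at least 1 FPKM in 3 libraries were fitted with limma 3.58.1 (R 4.3.3) on log2(FPKM + 1), all 12 libraries in 1 fit, so fold changes of low genes are understated. Members and lists were chosen with earlier results of these data known. All members were eligible to be named; of other lists, those called, up to 5 per list. In simulated data for HFD against ND, 170 of 200 genes changed by 1 log2 unit were recovered among 12775.

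Not used were 3 FPKM columns that match no sample and the columns of the authors' own comparisons. The receptor kinase group of the pathway is not reported here. A column headed MD4 was read as ND mouse 4. No HFD library carries the letter R found in 4 sample titles. The column names of those 4 libraries also end in a shared number that no other column used here carries. Alternatives covered pseudocount, filter, scaling, moderation, covariate, transcript choice, left-out mice and a replicate block.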

Additional observations from a re-analysis of the deposited data

How the results depend on the processing

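Counts of called members moved with the limits of a call. With the adjusted p alone they were 10 for HFD against ND and 4 for CLE against HFD, beside 50.5% and 33.6% of all genes. They were 1 for CLE against ND and 2 for LU against ND, beside 5.17% and 12.8%. With a pseudocount of 0.1 they were 2 for CLE against HFD, 1 for CLE against ND and 1 for LU against ND. The shares of all genes were 19.6%, 3.33% and 8.08%. A filter on a mean of 5 FPKM left 27 members, with 2 called for HFD against ND and 1 for LU against HFD. Beside them stood 24.1% and 12.1% of all genes. No filter gave 1 for LU against HFD, beside 7.63%. With the letter R as a covariate, 2 were called for CLE against HFD and 1 for LU against HFD. The shares of all genes were 16.4% and 11.9%. Without the libraries with the letter R the counts were 2 and 0, beside 14.8% and 11.5% of all genes. The medians there were 0.16 for CLE against ND and 0.30 for LU against ND. In both fits, Isg15 was not called for HFD against ND (limma adjusted p = 0.0801 and 0.467), and without those libraries neither was Oasl1 (adjusted p = 0.0606). The highest transcript of each gene gave 3 for CLE against HFD, 1 for LU against HFD and 1 for LU against ND. Beside these, 16.1%, 12.0% and 6.06% of all genes were called. Annotated transcripts only, which left 33 members without Oas1a, Mx1 and Oas3, gave 1 for LU against ND, beside 5.93%. The next alternatives were chosen after seeing the data. Without ND mouse 4, CLE mouse 11 and LU mouse 3, 4 were called for CLE against HFD, beside 18.1% of all genes. Gene names taken from the table moved no count by over 1.5 times.

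Leaving out 1 mouse at a time gave 4 to 6 called members for HFD against ND, beside 24.6% to 26.5% of all genes. For CLE against HFD it gave 1 to 4, beside 14.9% to 18.2%, and for LU against HFD 0 to 3, beside 10.6% to 13.2%. For CLE against ND it gave 0 to 1, beside 0.971% to 3.90%, and for LU against ND 0, beside 4.48% to 7.55%. CLE against LU gave 0, beside at most 0.00783% of all genes. The 3 other scalings kept every call of a member in the first 3 comparisons, and quantile normalization added Igtp for HFD against ND. With a replicate block, mice that share a number gave 0 called members for CLE against ND and for LU against ND, with medians of -0.16 and 0.24. Over all genes the calls went from 372 to 2 and from 842 to 407. The deviations of same-numbered mice correlated between -0.10 and 0.19, beside -0.26 to 0.33 for 22 other pairs from different groups without HFD. Same-numbered mice of different groups were different animals. No call of a member was reversed in direction. Among 88 calls of pathway genes and macrophage markers for HFD against ND, CLE against HFD and LU against HFD, 0 were reversed and 28 were lost under at least 1 alternative, of which 9 under a scaling. Depth is unknown from FPKM.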
